A study of Mus musculus with 4 samples.

Results

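Costimulatory and coinhibitory ligands are the surface proteins with which a B cell tells a T cell, once the T cell has met its antigen, whether to go on or to stop. The 7 genes described here are a chosen set of such ligands that mouse B cells are known to carry: Icosl, Cd80, Cd86, Cd274, Pdcd1lg2, Cd24a and Cd70. They were chosen by name, with every non-control array probe that carries one of these names, and make up 7 of the 27745 gene names and 10 of the 41174 probes on the arrays. Icosl, Cd80 and Cd86 have a pair of probes each, and the other genes have 1.

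The arrays held RNA of 2 B-cell lymphoma lines, each established independently from dopamine receptor 3 transgenic mice, and of 2 samples of B220+ splenocytes, the spleen cells that carry the B-cell form of CD45. All 4 samples are labelled C57BL/6N and female, and the animals' age and the promoter of the transgene are not given in the sources used here. Lymphoma against normal cell, cultured line against cells from spleen, and transgenic against plain C57BL/6N origin run together in this design and cannot be told apart. Each line gave 1 array, and nothing says that the splenocyte samples came from separate mice, so the p-values speak for these samples and their spread alone, which may be technical.

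CD80 and CD86 bind CD28, which drives T-cell activation, and CTLA-4, which restrains it. ICOS ligand binds ICOS and is known for its part in the help that follicular T cells give to B cells in the germinal centre. PD-L1, from Cd274, and PD-L2, from Pdcd1lg2, bind PD-1 and dampen the T cell. CD70 is a TNF-family ligand of CD27 that activated lymphocytes carry for a short time, and CD24, from Cd24a, is a small glycosylated protein with a lipid anchor that binds Siglec family receptors and P-selectin and was early described as a costimulator on B cells.

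Of the 7 genes, 4 have an entry in the RefSeq promoter table (GRCm38.p6). The 250 bases before each start are shown, because the ligands differ among themselves in base composition there. Capitals mark the matches to the motifs searched on both strands: GGGCGG, the letters bound by SP1, GAAA repeated in the same direction after 2 bases, read by interferon regulatory factors, TTCNNNGAA, read by STAT factors, and the NF-kappaB consensus.
Icosl, chr10:78069118-78069367, plus strand: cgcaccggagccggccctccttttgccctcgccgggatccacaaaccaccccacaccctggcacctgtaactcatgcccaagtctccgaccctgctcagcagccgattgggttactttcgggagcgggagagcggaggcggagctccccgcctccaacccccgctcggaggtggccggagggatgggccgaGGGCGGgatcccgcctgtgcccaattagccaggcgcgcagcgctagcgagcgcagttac
Cd80, chr16:38458683-38458932, plus strand: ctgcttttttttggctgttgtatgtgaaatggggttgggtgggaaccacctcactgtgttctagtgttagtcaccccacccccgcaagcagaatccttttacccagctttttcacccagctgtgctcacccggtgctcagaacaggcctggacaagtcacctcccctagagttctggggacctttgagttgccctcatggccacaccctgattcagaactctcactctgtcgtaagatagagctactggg
Cd274, chr19:29367188-29367437, plus strand: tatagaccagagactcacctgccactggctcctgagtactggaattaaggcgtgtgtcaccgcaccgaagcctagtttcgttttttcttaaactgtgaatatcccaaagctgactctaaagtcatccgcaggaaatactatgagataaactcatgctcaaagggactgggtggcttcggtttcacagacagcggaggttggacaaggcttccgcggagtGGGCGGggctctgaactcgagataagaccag
Pdcd1lg2, chr19:29410669-29410918, plus strand: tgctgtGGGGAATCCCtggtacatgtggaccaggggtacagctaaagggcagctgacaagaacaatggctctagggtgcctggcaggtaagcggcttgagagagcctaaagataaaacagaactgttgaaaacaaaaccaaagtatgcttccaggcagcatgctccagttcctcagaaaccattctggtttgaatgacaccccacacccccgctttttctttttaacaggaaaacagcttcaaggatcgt
The Icosl window held 23 CG dinucleotides, more than 86.7% of the 32851 promoter windows in the table, and 1 GGGCGG, 59 bases before the start. The Cd274 window held 11 CG dinucleotides, more than 64.4% of windows, and 1 GGGCGG, 31 bases before the start. The Cd80 and Pdcd1lg2 windows held 3 CG dinucleotides each, against a median of 6, and the Pdcd1lg2 window had 1 match to the NF-kappaB consensus, 244 bases before the start. GGGCGG stood in 32.7% of all windows and the NF-kappaB consensus in 3.9%. No window of the 4 held the GAAA repeat or TTCNNNGAA, which stood in 2.98% and 7.02% of all windows. TTC and GAA set apart by other numbers of bases were not searched. No matches overlapped, and a match is a run of letters, not a measured site.

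Signals are given as multiples of each array's 75th percentile, called the relative signal, so that a probe at that percentile has the value 1. That percentile was an intensity of 1122 and 1315 on the line arrays and of 1078 and 514 on the splenocyte arrays, and 25904 to 26064 probes were well above background on the line arrays against 24972 to 27318 on the splenocyte arrays. Arrays correlated at 0.990 between the lines, 0.992 between the splenocyte samples and 0.823 to 0.838 between the groups. All 7 B-cell markers reported (Cd79a, Cd79b, Ms4a1, Ptprc, Pax5, Blnk and Cd22) were well above background on all 4 arrays; 5 of them were called lower in the lines, among them Cd22 and Ptprc, the gene of B220 (Blnk lost its call without line 1, line 2 or splenocyte sample 2, and Pax5 without splenocyte sample 2, adjusted p = 0.0809, 0.0840, 0.148 and 0.0642), and their summed relative signal was 428 and 416 in the lines against 695 and 894 in the splenocytes.

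Among the 10 ligand probes, 4 were called higher and 5 lower in the lymphoma lines than in the splenocytes, where called means a limma adjusted p under 0.05. Across the arrays 64.8% of the 27402 tested probes were called (32.3% higher, 32.5% lower), so a call by itself says little here and the sizes carry the description. All 10 ligand probes passed the filter on dim probes, Cd70 through the lines alone and the upstream Icosl probe through the splenocytes alone. The groups did not overlap on any of the 10, as was the case for 85.6% of all tested probes. With RNA from whole samples, fewer cells carrying a transcript and less of it per cell cannot be told apart.

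**Figure D1:**
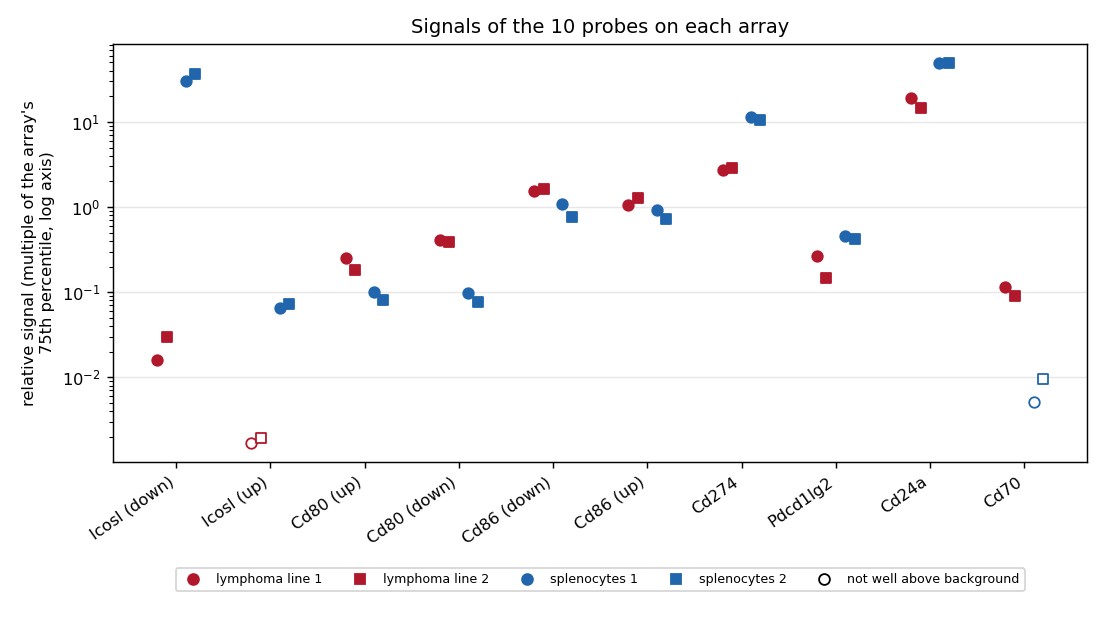
Relative signal (vertical axis, log axis) of each ligand probe on the lymphoma line and splenocyte arrays, 1 point an array. Open markers are signals not well above background, and "up" and "down" name the upstream and downstream probe of a gene. Icosl spans the widest gap, and Cd86 the narrowest, with relative signals of 1.06 to 1.63 in the lines and 0.724 to 1.08 in the splenocytes.

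Icosl, the only known ligand of ICOS, was lower in both lines by the widest margin of the 7 genes. Its downstream probe (A_51_P520966, mm8 chromosome 10, 77482595 to 77482654, plus strand) had relative signals of 0.0159 in line 1 and 0.0294 in line 2, against 30.1 and 37.1 in the splenocytes. In the splenocytes it was thus among the bright probes of the array, while in the lines it stood little above background. The difference was -10.60 ± 0.34 on the log2 scale (SE; 95% interval -11.52 to -9.67), 1548-fold lower, with a limma adjusted p of 0.000173. Over the array, 7.87% of tested probes were called and at least 8-fold lower, and 39 probes, 0.142%, had a difference this low or lower.

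The upstream Icosl probe (A_52_P432647, 77474943 to 77475002), 7652 bases away, was far dimmer. Its relative signals were 0.00170 and 0.00193 in the lines, not well above background in either, against 0.0644 and 0.0728 in the splenocytes. It was at least 9.67-fold lower in the lines. This bound sets the splenocyte mean against the lowest signal that was well above background on each line array, since a dim spot carries only an upper limit. The limma adjusted p of 0.000159 belongs to the fitted difference of -5.24, which uses the dim line signals, and not to this bound. Both probes put Icosl lower, and the upstream one was at the background limit in the lines. With background corrected by normexp, which models spot and local background together, the differences were -8.73 and -1.61, with both still called.

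Cd80, which in resting B cells is known to be scarce and in activated ones induced, was higher in both lines. Its downstream probe (A_51_P418295, mm8 chromosome 16, 38414847 to 38414907, plus strand) had relative signals of 0.412 and 0.389 in the lines against 0.0985 and 0.0777 in the splenocytes. Both lines lay close together and well clear of the splenocytes, a difference of 2.19 ± 0.18 (95% interval 1.70 to 2.68), 4.57-fold higher, with a limma adjusted p of 0.00111. The upstream probe (A_52_P244005, 38393393 to 38393452), 21454 bases away, gave 0.252 and 0.184 in the lines against 0.0993 and 0.0814 in the splenocytes, 2.40-fold higher (1.26 ± 0.23, limma adjusted p = 0.00884). The splenocyte levels on the probes were alike, and the lines stood further above them on the downstream one. Under normexp the downstream probe stayed called at 2.69-fold, while the upstream probe gave 0.63 with an adjusted p of 0.0610.

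Cd86, the other ligand of CD28 and CTLA-4, was near the 75th percentile of every array and differed least. Its downstream probe (A_52_P145861, chromosome 16, 36523659 to 36523718, minus strand) had 1.56 and 1.63 in the lines against 1.08 and 0.764 in the splenocytes, 1.76-fold higher (0.81 ± 0.22, 95% interval 0.23 to 1.40, limma adjusted p = 0.0289). The upstream probe (A_51_P174723, 36534534 to 36534593), 10875 bases away, had 1.06 and 1.28 in the lines against 0.919 and 0.724 in the splenocytes, a difference of 0.52 ± 0.20 that was not called (95% interval -0.03 to 1.06, limma adjusted p = 0.0837). The downstream call was lost when line 1 (0.84, adjusted p = 0.0802), line 2 (0.78, adjusted p = 0.0904) or splenocyte sample 2 (0.57, adjusted p = 0.122) was left out, and the upstream probe was called when arrays were centred on their medians (0.92, adjusted p = 0.0110). On both probes each line lay above each splenocyte sample.

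Both PD-1 ligands were lower in the lines. Cd274 (A_51_P248666, mm8 chromosome 19, 29453870 to 29453929, plus strand) had relative signals of 2.72 and 2.84 in the lines against 11.5 and 10.6 in the splenocytes. The lines agreed closely, as did the splenocytes, and Cd274 was 3.97-fold lower (-1.99 ± 0.15, 95% interval -2.38 to -1.60, limma adjusted p = 0.000833). It stayed above the 75th percentile in both lines.

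Pdcd1lg2 (A_51_P383448, 29536533 to 29536592, plus strand), whose probe lies 82663 bases from that of Cd274, had 0.269 in line 1 and 0.147 in line 2, against 0.454 and 0.426 in the splenocytes. Line 1 lay between line 2 and the splenocytes. The difference was -1.14 ± 0.33 (95% interval -2.01 to -0.27), 2.21-fold lower, with a limma adjusted p of 0.0347. That call was lost with quantile normalization (adjusted p = 0.0620), with arrays centred on their medians (-0.73, adjusted p = 0.129) and without splenocyte sample 1 (-1.10, adjusted p = 0.111) or 2 (-1.19, adjusted p = 0.0960), while the direction held; the fold was 1.63 without line 2 and 2.98 without line 1.

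**Figure D2:**
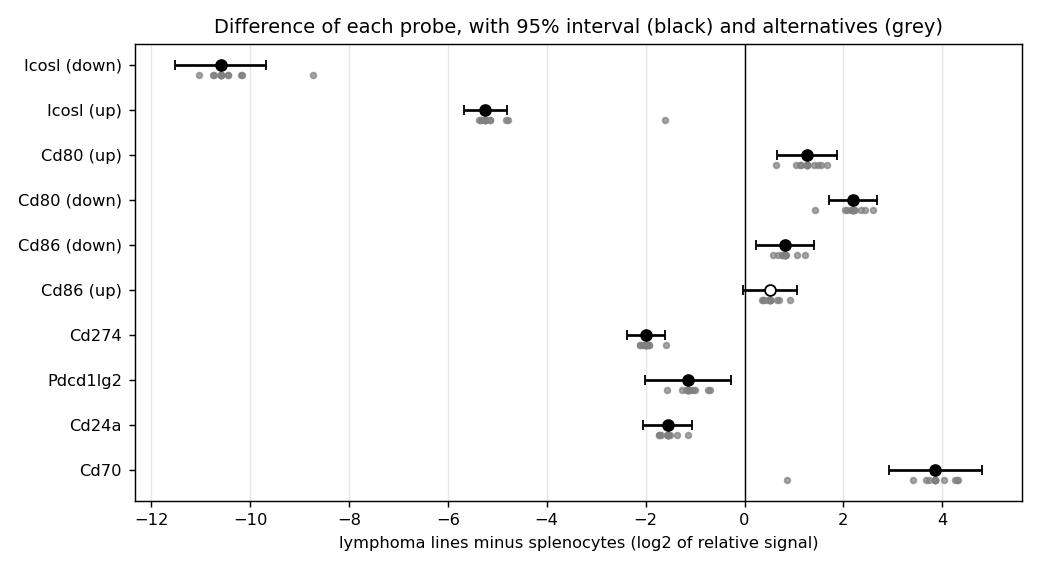
Difference of each ligand probe, lymphoma lines minus splenocytes, in log2 of the relative signal (horizontal axis), with the 95% interval in black, an open circle where the probe was not called, and grey points for the 15 alternative settings where they gave a value. No grey point lies across 0 from its black point, and Icosl (upstream), at -1.61, and Cd70, at 0.87, move most, both under normexp.

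Cd70, the ligand of CD27, was higher in the lines. Its probe (A_51_P508640, mm8 chromosome 17, 56834970 to 56835029, minus strand) had relative signals of 0.116 and 0.0898 in the lines against 0.00516 and 0.00958 in the splenocytes, neither of which was well above background. Cd70 was at least 10.2-fold higher in the lines, measured against the background limit of the splenocyte arrays. The limma adjusted p of 0.00138 belongs to the fitted difference of 3.86, which uses the dim splenocyte signals, and not to this bound. Even in the lines its relative signal was below that of either Cd80 probe, although signals of different probes do not compare as levels. Under normexp the difference was 0.87 with an adjusted p of 0.0694.

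Cd24a, known as a marker of immature and activated B cells, was lower in both lines and bright in all samples. Its probe (A_52_P244193, mm8 chromosome 10, 43272315 to 43272374, plus strand) had 18.9 and 14.7 in the lines against 49.3 and 48.7 in the splenocytes, 2.94-fold lower (-1.55 ± 0.19, 95% interval -2.05 to -1.06, limma adjusted p = 0.00270). A probe for EG621324, a predicted transcript on chromosome 14 that the array annotates as similar to the CD24 precursor, had 3.83 and 3.13 in the lines against 9.54 and 8.66 in the splenocytes (-1.39 ± 0.18, limma adjusted p = 0.00321). Whether each probe reads both transcripts was not tested, so the Cd24a value is uncertain as to its source.

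Set in a row by size, the lines were lower than splenocytes for Icosl, Cd274, Cd24a and Pdcd1lg2, and higher for Cd70, Cd80 and Cd86 (on 1 of the Cd86 probes). The median of the absolute line 1 minus line 2 difference over the 10 probes was 0.32, against 0.23 over all tested probes, and that of splenocyte 1 minus 2 was 0.29, against 0.16. On the downstream Icosl probe line 2 gave more than line 1 (line 1 minus line 2 was -0.89), with both lines little above background. On the upstream Icosl probe the value was -0.18, with neither line well above background. Pdcd1lg2 was lower in line 2 than in line 1 (0.87). On the 8 probes other than downstream Icosl and Pdcd1lg2 the lines lay within 0.453 of each other. The splenocyte samples differed by 0.49 or less on every probe but Cd70, where they were at background. With 1 array a line these differences have no test.

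**Figure D3:**
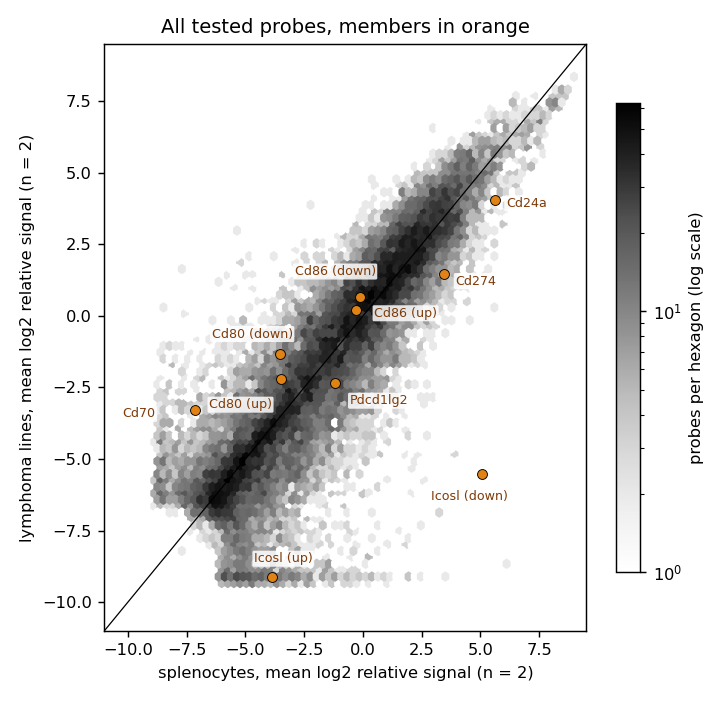
Mean log2 relative signal of each of the 27402 tested probes in the lymphoma lines (vertical axis) and in the splenocytes (horizontal axis), shaded by the number of probes, with the diagonal of equal signal and the ligand probes in orange. The downstream Icosl probe lies far from the bulk, and the Cd86 probes lie within it.

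Markers of other cells that a B220 gate could let through were read beside these values. Over all genes tested, 30.7% were called higher and 32.7% lower, so counts of marker calls say little by themselves. Of the 7 macrophage and monocyte markers, 5 were called lower in the lines (Lyz2 at least 517-fold, limma adjusted p = 9.44e-05) and 2 higher (Adgre1, 4.23, and Mpeg1, 1.81). Of the 7, 5 were well above background in both lines, and Itgam was so in line 1 alone. The summed relative signal was 74.1 and 69.7 in the lines against 18.2 and 15.1 in the splenocytes, and in the lines nearly all of it was Adgre1 and Mpeg1. Of the 4 dendritic cell markers tested, 1 was lower (Itgax, at least 122-fold, limma adjusted p = 0.000447), 2 were higher and 1 was not called, with sums of 0.416 and 0.678 in the lines against 1.21 and 1.22 in the splenocytes. Of the 8 T-cell markers, 4 were lower (Thy1 at least 95.6-fold, Cd8a at least 25.4-fold), 2 higher (Cd3g, 4.36, and Cd8b1, 1.53) and 2 not called. Their sums were 8.20 and 9.55 in the lines against 7.95 and 6.11 in the splenocytes. The array places the Cd8b1 probe on chromosome 5 and the Cd8a probe on chromosome 6, so what the Cd8b1 probe reads is uncertain. Cd3g (5.09 and 6.15) and that probe (1.82 and 1.84) made up most of the sums in the lines. Of the 3 NK-cell markers tested, 1 was higher and 2 were lower, and all 3 erythroid markers tested were lower. Some of these marker calls were lost when an array was left out. Hbb-b1 and Slc4a1 (erythroid) kept theirs in 9 of 15 alternatives; Hbb-b1 lost it without splenocyte sample 1 (adjusted p = 0.123) or 2 (0.128), and Slc4a1 without line 1 (0.0932), line 2 (0.0790) or splenocyte sample 1 (0.135). Prf1, the NK marker called higher, lost its call without line 1 (0.0517) or splenocyte sample 1 (0.100) or 2 (0.0630), Klrk1 without splenocyte sample 2 (0.0551), and Siglech, a dendritic cell marker called higher, without line 2 (0.0884) or splenocyte sample 1 (0.0784). Among the markers not called, Xcr1 (dendritic cell) was called lower in 4 of 15 alternatives, Cd3e higher in 2 and Cd4 higher in 1. Thy1, Cd8a, Lyz2 and Itgax were not well above background in either line and were in both splenocyte samples. These cells are known to carry some of the ligands, Cd274, Pdcd1lg2, Cd80 and Cd86 among them, and their part in the results was not tested.

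The receptors that these ligands bind are mostly T-cell genes, and 8 of them were listed and tested. In the lines 1 was called higher, 5 lower and 2 not called, with a median difference of -1.18 against -0.05 over all 18314 genes tested (1 probe each, 63.4% called). Pdcd1, the gene of PD-1, had 0.282 and 0.429 in the lines against 0.113 and 0.0733 in the splenocytes (1.94 ± 0.32, limma adjusted p = 0.00704). PD-1 RNA was higher in the lines, in which both of its ligands were lower. Ctla4, which competes with CD28 for CD80 and CD86, was at least 13.3-fold lower, and Cd27, the receptor of CD70, at least 10.6-fold lower (limma adjusted p = 0.00260 and 0.000844); neither was well above background in the lines. Icos was lower by 1.66 (0.0473 and 0.0313 in the lines against 0.142 and 0.105 in the splenocytes), Rgmb, a binding partner of PD-L2, by 1.19, and Siglecg, a Siglec of B cells that binds CD24, by 1.17. Cd28 (1.07, limma adjusted p = 0.0787) and Selp were not called, though Cd28 was called higher without line 1 (1.65, adjusted p = 0.00716), with median centring (adjusted p = 0.0165), with quantile normalization (0.0231) and with the replicate block (0.0483).

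Among other co-signalling surface genes, 25 of the 26 listed had a probe and 22 were tested. Of these, 8 were called higher and 8 lower, against 30.7% and 32.7% of all genes tested, and 6 were not called. The median difference of the 22 was -0.12. The largest increases were in Tnfsf9, the ligand of 4-1BB, with 1.15 and 0.616 in the lines against 0.0196 and 0.0194 in the splenocytes (5.43 ± 0.33, limma adjusted p = 0.000571), Nectin2 (4.97 ± 0.69), Tnfsf14, also called LIGHT, with 1.28 and 1.32 in the lines against 0.0890 and 0.0615 in the splenocytes (4.13 ± 0.23), and Cd276, a B7-family member also called B7-H3 (3.94 ± 0.27). Nectin2 and Cd276 were well above background in 1 of the 2 splenocyte samples, so their fitted differences use a dim signal. Their place in this order is therefore uncertain. Nectin2 was 15.6-fold higher without splenocyte sample 2 and at least 17.6-fold higher without sample 1, since sample 2 gives only a limit. For Cd276 these values were 12.2-fold and at least 19.4-fold. The other tested Nectin2 probe gave 2.38, also called higher, and the brighter probe gave 1.62 at the lowest over the alternatives. Of the genes well above background on all arrays, Cd84 (-3.12 ± 0.14) and Slamf1 (-2.75 ± 0.16), both of the SLAM family of lymphocyte surface proteins, fell most. Lgals9, the gene of galectin-9 (at least 121-fold lower, limma adjusted p = 9.44e-05), and Tnfsf8, the ligand of CD30 (at least 3.03-fold lower, limma adjusted p = 0.00402), were not well above background in the lines, and their bounds have no rank. Each of these 8 was called in every alternative that gave a value. Of the calls counted, Cd40 lost its own without splenocyte sample 1 (adjusted p = 0.0533) or 2 (0.0920), and Icam1 without line 1 (0.113) or splenocyte sample 1 (0.0882) or 2 (0.184). Pvr, counted as not called on its brightest probe, had 3 of 5 tested probes called higher.

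Of 17 genes known to regulate or handle the ligands, 2 were higher, 6 lower and 9 not called (median -0.38), by the brightest probe of each. Over all 18314 genes tested, 30.7% were called higher and 32.7% lower (median -0.05), so these counts by themselves say little about the list. Nfkb1, counted as not called, had 3 of 4 tested probes called lower, and the Stat3 call was lost without splenocyte sample 1 (adjusted p = 0.0617) or 2 (0.0598). Marchf1, a membrane ubiquitin ligase that takes CD86 off the surface of antigen-presenting cells, had 1.04 and 1.60 in the lines against 43.3 and 46.0 in the splenocytes (-5.11 ± 0.25, limma adjusted p = 0.000367). Its relative Marchf8, which can act on the same protein, had 1.52 and 1.97 in the lines against 0.263 and 0.213 in the splenocytes (2.87 ± 0.21, limma adjusted p = 0.000863). Irf1, an interferon-induced transcription factor, was lower (11.0 and 8.74 in the lines against 59.2 and 67.5 in the splenocytes; -2.69 ± 0.19). Myc (-2.52) and Rel, an NF-kappaB subunit (-1.83), were also lower, and Irf4 was higher (0.93, limma adjusted p = 0.00970, 0.0606 without splenocyte sample 2). All of these are RNA values, and surface protein was not measured here.

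**Figure D4:**
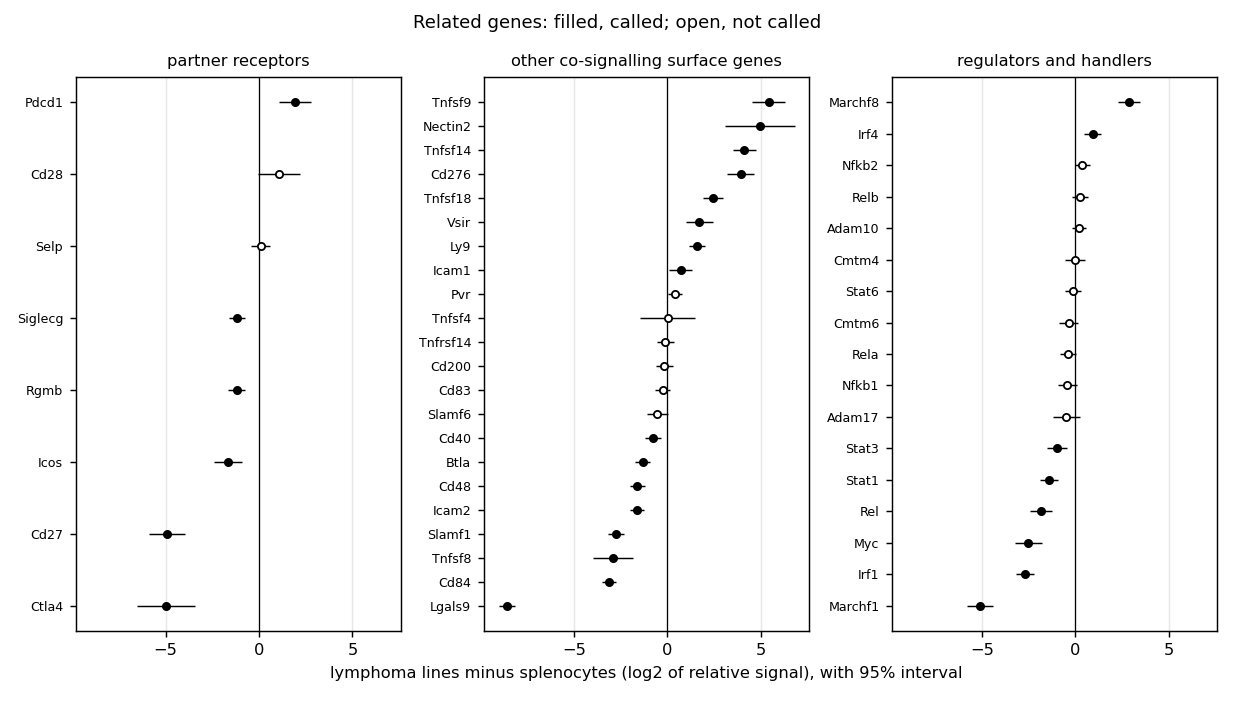
Difference of each tested gene (lymphoma lines minus splenocytes, log2 of the relative signal) in the lists of partner receptors, other co-signalling genes and regulators, with filled points for genes called and open points for those not called. By fitted values Lgals9, Ctla4, Cd27 and Marchf1 lie furthest to the lower side (the first 3 not well above background in the lines) and Tnfsf9, Nectin2, Tnfsf14 and Cd276 furthest to the higher side.

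Some ligands have relatives beside them on the chromosome. Cd70 lies between Tnfsf9, whose probe is 42529 bases away, and Tnfsf14, 40134 bases away, and all 3 of these TNF-family ligands were higher in the lines. Within 250 kb of Cd70, by the mm8 positions on the array, 19 genes were tested, of which 7 were higher, 4 lower and 8 not called. Over all 18314 genes tested, 30.7% were called higher and 32.7% lower, so such counts by themselves say little about a region. Cd274 and Pdcd1lg2 lie side by side, and Jak2, chosen for mention after its values were seen, has a probe 76002 bases from that of Cd274 and was lower as well (-0.89 ± 0.16, limma adjusted p = 0.00845), a call lost with median centring (-0.48, adjusted p = 0.0552) and without splenocyte sample 1 (0.0504) or 2 (0.0532). The counts around all the ligands stand against the same shares over all genes. Of 72 neighbouring names 61 were tested, with 23 higher, 18 lower and 20 not called and a median of 0.16. The largest increases among them were in Tnfsf9, NAP028770-1 (4.32), Tnfsf14 and Pla1a (3.07), and Ildr1 (-4.41) and Aire (-3.64) fell most among those that every array measured above background. Trpm2 (at least 118-fold lower), Crb3 (at least 99.98-fold) and AK084166 (at least 9.82-fold) were not well above background in the lines, and their bounds have no rank. Trpm2 lies 162309 bases from the Icosl probe, and Ildr1 is a neighbour of Cd86, which was higher.

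The genes whose 4-array pattern was nearest to each ligand were found by Euclidean distance in log2 relative signal, each probe centred on its splenocyte mean, among the 12145 of the 18314 tested gene names that RefSeq lists for a protein-coding gene, clone-style names aside, a limit set after the data were seen. For Icosl these were Adgre5 (distance 0.32), Rtp4 (0.35) and Fos (0.48), for Cd80 Fbxl18, Nudcd2 and Spc25, and for Cd86 Tmem37, Pacsin2 and Ifitm3. They were Cbll1, Wsb1 and Cklf for Cd274, Tmem26, Mesp1 and Cfap53 for Pdcd1lg2, Chsy1, Mup4 and Ddx24 for Cd24a, and Pard6g, Acsm3 and Dusp23 for Cd70. With 4 arrays in 2 groups, such likeness mostly restates a similar difference between the groups.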

How the data were processed

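Total RNA of 2 lymphoma lines and 2 B220+ splenocyte samples was hybridised as Cy3-labelled cRNA to Agilent mouse arrays. Per the file headers, the deposited processed signals are intensities that the authors extracted with Agilent Feature Extraction 9.5.1.1 (9.5 per the submitters' processing notes), background-subtracted and not normalized between arrays, with probe positions in mm8. The deposited value table is an intensity too; set against the processed signals, each of its columns is the array's signal times 1 factor (0.961 and 0.820 for the lines, 1 and 2.10 for the splenocytes), with column medians of 41.6, 46.1, 58.7 and 57.5 in the same order. Its scale is thereby known from the values only.

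Here, control spots, and 153 probes with spot flags, were left out, spots of a probe were averaged, and log2 signals were taken relative to each array's 75th percentile over the 43379 non-control spots. Probes well above background on at least 2 arrays (27402) were tested with limma 3.58.1 in R 4.3.3 (lmFit, eBayes, two-sided), with Benjamini-Hochberg adjustment over all of them and calls at an adjusted p under 0.05. No spot was saturated. The fit has 2 residual and 2.42 prior degrees of freedom, so the number of arrays limits the precision. All 4 arrays share 1 slide and 1 scan. A lower bound on a fold replaces the dim group's signal by the lowest signal well above background on each array. Probes with a bound passed the filter through the brighter group alone. A p printed beside a bound is that of the fitted difference, which uses the dim signals, and does not test the bound. Wider lists take the probe with the highest mean per gene, and as a rule at most 4 called genes in each direction are named for their size. All called partner receptors are named, more neighbours called lower are, and genes that lost a call are named besides. Current symbols stand for the array's older ones (Pvrl2, March1, March8, Emr1, Lyzs, Igj). The replicate numbers do not pair the samples (correlation of deviations 0.0113). The fit was tested on simulated data. A listed marker is not reported here. The ligands, lists and tests were chosen with earlier results of these data known.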

Additional observations from a re-analysis of the deposited data

How the results depend on the processing

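There were 15 alternatives (scaling, background correction, filter on dim probes, deposited table, variance trend, kept flags, 1 probe per gene, each array left out, a replicate block). The 10 ligand probes kept direction throughout. Only scaling, background correction and leaving out an array could change it. The other alternatives leave the difference of a ligand probe unchanged or, for the deposited table, nearly so. Of the values of the ligand probes, 132 kept their side of the threshold, 11 lost the call and 2 gained it. The lost calls are those of Cd86 (downstream), Pdcd1lg2, Cd80 (upstream) and Cd70; with no filter on dim probes Cd86 (downstream) had an adjusted p of 0.0696 and Pdcd1lg2 of 0.0724. The count of ligand probes called was 9, and 7 to 8 with 1 array left out, 9 with the replicate block, 7 under normexp and 10 with an intensity trend. The 47 genes of the wider lists had 30 calls, 26 to 31 with 1 array left out, 31 with the replicate block and 25 to 35 under the others. All probes had 17753 calls, 13158 to 17019 with 1 array left out, 16748 with the replicate block, and 11579 with 1 probe per gene name, where fewer probes were tested. The share of calls that were higher in the lines was 49.9% over all probes and 64.0% with arrays centred on their medians, 44.4% and 55.6% for the ligand probes (28.6% under normexp), and 36.7% and 48.5% for the wider lists. Relative to the 75th percentile scaling, the median over all probes shifted by 0.15 with quantile normalization, 0.41 with median centring, -0.13 with the percentile over bright probes and -0.28 under normexp. The downstream Icosl probe was 1137-fold lower without line 1 and 2106-fold lower without line 2. With 1 array left out, the lone array of its group is assumed to vary like the other group's. A slide or scan block could not be fitted because all arrays share both.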

Other observations

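Of 4 plasma cell genes, which B cells are known to use as they turn to secreting antibody, 2 were higher in the lines and 2 were not called. Over all genes tested, 30.7% were called higher. Prdm1, the gene of the regulator Blimp-1, had relative signals of 1.66 and 2.48 in the lines against 0.562 and 0.606 in the splenocytes (1.80 ± 0.24, limma adjusted p = 0.00378). Xbp1, which equips the secretory pathway, had 5.86 and 9.98 in the lines against 2.35 and 2.97 in the splenocytes (1.53 ± 0.31, limma adjusted p = 0.0131, 0.0560 without splenocyte sample 1). Sdc1 and Jchain were not called, and Jchain had 1.83 in line 1 and 15.6 in line 2, against 41.6 and 59.7 in the splenocytes. Both were called lower under some alternatives, Jchain in 7 of 15 (-1.67 without line 1 and -4.77 without line 2, limma adjusted p = 0.0196 and 0.00290) and Sdc1 in 5 of 15 (-2.40 without line 2, adjusted p = 0.0111).

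A probe for AK035678, a clone on the minus strand within the Cd274 and Pdcd1lg2 region (mm8 chromosome 19, 29444919 to 29444978), was not well above background on any array and was not tested.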
